A study of Mus musculus with 55 samples.

Results

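The genes examined here were the 10 Polycomb and Asxl genes *Ezh1*, *Ezh2*, *Eed*, *Suz12*, *Bmi1*, *Ring1*, *Rnf2*, *Cbx7*, *Asxl1* and *Asxl2*, taken from the count table by symbol, 10 of 55421 genes. The study asked which signals act in *Tet2*-deficient clonal hematopoiesis, and it profiled sorted bone marrow cells of mice by bulk RNA-seq. The libraries came from long-term and short-term hematopoietic stem cells (LT-HSC and ST-HSC), common myeloid progenitors (CMP), granulocyte-monocyte progenitors (GMP), megakaryocyte-erythrocyte progenitors (MEP) and common lymphoid progenitors (CLP). Each population was taken from wildtype (WT) mice and from *Tet2*-/- mice, whose labels read Tet2-KO, with 4 libraries a group except 3 for WT LT-HSC and 3 for WT ST-HSC, 46 in all. *Tet2*-/- mice carried floxed *Tet2* alleles that Mx1-Cre deleted after poly(I:C), on a C57BL/6 background, and were kept some months before analysis; poly(I:C) is itself an inducer of the interferon response, the Mx1 promoter answers to interferon, and Mx1-Cre also acts in cells outside the blood. The sources do not say whether WT mice were given poly(I:C), and the labels give no age. LT-HSC were sorted as lineage-negative, cKit and Sca1 positive, CD48 negative and CD150 positive cells, and ST-HSC as the same gate without CD150. Small numbers of cells were sorted into lysis buffer and their mRNA was amplified as full-length cDNA. The legends of the study count mice as replicates, while no label ties a replicate number to a mouse, so which libraries share a mouse is not given and p-values measure the spread between these libraries.

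Polycomb proteins keep genes silent through chromatin and are known in blood for holding the balance between self-renewal and differentiation. Polycomb repressive complex 2 (PRC2) methylates histone H3 at lysine 27 through either of the alternative catalytic subunits Ezh1 and Ezh2, and needs Eed and Suz12 for its activity. PRC1 ubiquitinates histone H2A through Ring1 or Rnf2, with Bmi1 as a Pcgf partner and Cbx7 as a reader of the methyl mark. Asxl1 and Asxl2 are partners of the deubiquitinase Bap1, which removes that ubiquitin, and Asxl1, Ezh2 and Tet2 are all recurrently mutated in human myeloid disease.

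Depth ran from 50458473 to 102148079 counts a library with a median of 70118186.5. The 8 CLP libraries stood apart from the others. They had 13754 to 16903 genes with a count, against 17586 to 20964 in the other 38 libraries, and their median correlation with libraries of their own group was 0.716 to 0.809, against 0.878 to 0.953. A member had no count in 5 CLP libraries (*Ring1* in 4, *Cbx7* in 1, *Asxl1* in 1) and in 1 other, the *Tet2*-/- LT-HSC replicate 4 (*Ring1*). The population calls were therefore also made without CLP. A CPM value is a count after scaling all libraries to the same size. *Slamf1*, which encodes CD150, was at 36.0 to 96.1 CPM in LT-HSC and at 0 to 1.59 in ST-HSC, and *Il7r*, which encodes CD127, was at 231 to 1120 CPM in CLP. *Rag1*, a recombinase gene of lymphoid cells, had a median of 0 in WT CLP and ran from 0.0594 to 19.4 CPM in *Tet2*-/- CLP. Other CLP markers in WT CLP were at 0.88 to 663 CPM (*Dntt*), 0 to 97.2 (*Flt3*), 0 to 31.9 (*Rag2*) and 0 to 3.2 (*Ebf1*). The 3 B cell markers summed to 39.4 to 826.1 CPM in CLP. Some CLP libraries also held GMP markers, with *Mpo* at 1.71 to 7157 CPM in *Tet2*-/- CLP and 2.77 to 1799 in WT CLP. The erythroid factor gene *Klf1* had a mean of 35.1 CPM in *Tet2*-/- MEP, below that of WT CMP (47.3). *Tet2* itself, counted over the whole gene, was not called in any population by edgeR's quasi-likelihood test, with log2 fold changes of *Tet2*-/- over WT from -0.37 in CMP to 1.23 in CLP. Reads from exons outside the deleted part are still counted, so this does not check the deletion.

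On mm10, *Ezh1* is at chr11:101191115-101226463, *Ezh2* at chr6:47530139-47595341, *Eed* at chr7:89954654-89980983 and *Suz12* at chr11:79993106-80034123. *Bmi1* is at chr2:18677018-18686629, *Ring1* at chr17:34020792-34024680, *Rnf2* at chr1:151458004-151500955 and *Cbx7* at chr15:79915807-79971119. *Asxl1* is at chr2:153345829-153404007 and *Asxl2* at chr12:3426857-3506852. All 10 are protein coding. Antisense genes overlap 1.0% to 6.8% of the exonic bases of 7 of them, and without a stated strand setting reads from such stretches cannot be told apart. The largest overlap was *Eed* with *E230029C05Rik*, which held 4448 counts over all libraries against 193010 for *Eed*. *Bmi1* has a near copy, *Gm5946*, with 0.15% of its count.

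Since Tet2 acts on methylated cytosines, which in mammals lie mostly in CG pairs, the promoters of the 10 genes were read for CG from RefSeq on GRCm38.p6, as the 250 bases before each start site. All 10 matched. The start sites of RefSeq and GENCODE differ for some genes, so the stretches of *Ezh2* and *Cbx7* lie inside the gene as placed above. They held 11 (*Asxl1*) to 37 (*Suz12*) CG pairs, against a median of 6 over 32841 promoters. *Asxl1* and *Eed* had the fewest, 11 and 12, followed by *Ezh1* with 14, while *Ezh2* had 23. The 4 sequences are shown because *Asxl1* held the calls between genotypes, *Eed* the lower values in stem cells, and *Ezh1* and *Ezh2* encode the alternative catalytic subunits. They run 5′ to 3′ along the gene's strand, with CG in capitals. *Asxl1* is chr2:153345580-153345829, plus strand, *Eed* chr7:89980977-89981226, minus strand, *Ezh2* chr6:47595031-47595280, minus strand, and *Ezh1* chr11:101226464-101226713, minus strand.
Asxl1: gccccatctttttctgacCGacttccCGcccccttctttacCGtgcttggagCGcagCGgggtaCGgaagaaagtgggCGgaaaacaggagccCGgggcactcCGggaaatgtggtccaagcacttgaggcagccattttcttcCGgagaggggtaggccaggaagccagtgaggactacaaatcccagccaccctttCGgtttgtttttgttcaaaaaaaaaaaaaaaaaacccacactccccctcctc
Eed: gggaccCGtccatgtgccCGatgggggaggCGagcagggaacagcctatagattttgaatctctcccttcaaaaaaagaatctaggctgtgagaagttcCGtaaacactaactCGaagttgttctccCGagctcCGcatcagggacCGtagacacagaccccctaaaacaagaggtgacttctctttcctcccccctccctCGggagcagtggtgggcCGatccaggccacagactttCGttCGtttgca
Ezh2: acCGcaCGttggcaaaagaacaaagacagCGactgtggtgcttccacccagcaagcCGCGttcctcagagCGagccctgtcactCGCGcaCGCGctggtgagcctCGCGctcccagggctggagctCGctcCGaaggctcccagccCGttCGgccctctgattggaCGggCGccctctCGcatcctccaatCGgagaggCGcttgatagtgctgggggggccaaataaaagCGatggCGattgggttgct
Ezh1: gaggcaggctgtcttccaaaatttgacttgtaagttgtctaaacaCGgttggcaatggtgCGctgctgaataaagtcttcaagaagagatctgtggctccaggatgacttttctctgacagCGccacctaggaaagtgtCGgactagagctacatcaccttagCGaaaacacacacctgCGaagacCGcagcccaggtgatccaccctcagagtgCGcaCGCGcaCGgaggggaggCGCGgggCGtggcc
The CG pairs of *Ezh2* lie along the whole stretch, while those of *Ezh1* include a run close to the start. No methylation was measured in these libraries. E2F factors drive genes of the dividing cell, and 4 forms of their motif, TTTCCCGC, TTTCGCGC, TTTGCCGC and TTTGGCGC, were searched on both strands. Each form contains a CG. Only *Suz12* of the 10 held a match, TTTCCCGC at 219 bases before the start on the gene's strand, against 1.86% of all promoters with a match.

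Per kilobase of exon, *Rnf2* was the highest of the 10 outside MEP, with group means of 15.7 to 43.2 CPM per kb over the 12 groups. In MEP *Eed* was above it (19.3 against 15.7 in WT and 18.5 against 15.9 in *Tet2*-/-), as was *Suz12* in *Tet2*-/- (18.5). *Eed* ranged over 6.07 to 25.3, *Suz12* at 5.70 to 18.5, *Ezh2* at 5.88 to 12.6, *Bmi1* at 3.44 to 14.8 and *Asxl1* at 3.82 to 10.1. *Ezh1* lay at 1.52 to 4.38 and *Asxl2* at 1.99 to 3.58, while *Cbx7* (0.184 to 1.52) and *Ring1* (0.247 to 1.22) were the lowest. In the pair of PRC1 ligases the mean of *Rnf2* was 19.7 to 108 times that of *Ring1*, and in the Asxl pair *Asxl1* was 1.53 to 3.94 times *Asxl2*, per kb. The Asxl ratio depends on the lengths of all annotated exons, 7.44 kb for *Asxl1* and 15.94 kb for *Asxl2*. Per gene, the mean of *Asxl2* was the higher in WT GMP (32.7 against 28.5 CPM), WT CLP (47.9 against 46.8) and *Tet2*-/- CLP (53.4 against 38.1), and the lower in the other groups. All other CPM values are per gene, not per kb, and are scaled over the 46 libraries. In bulk samples fewer cells that use a gene and less RNA per cell cannot be told apart.

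**Figure D1:**
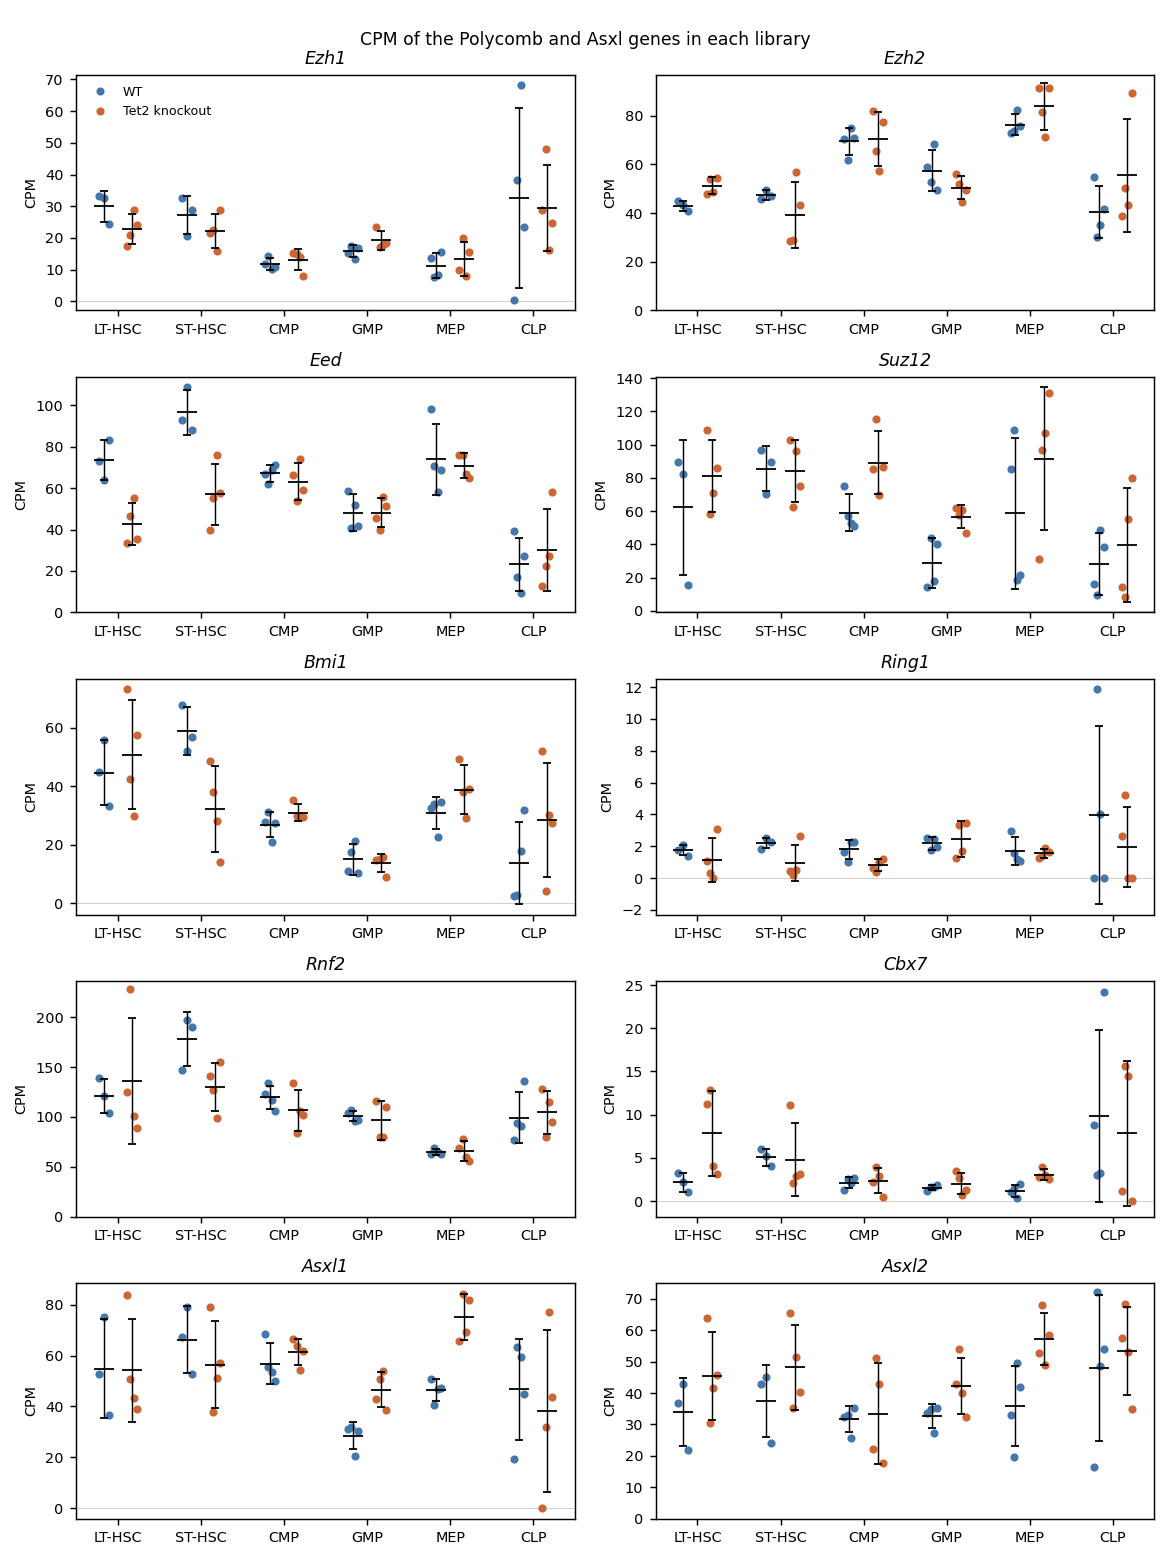
CPM of each of the 10 genes by population, with a point for each library and the mean with its SD for WT and *Tet2*-/-. *Rnf2* has the highest single value and *Ring1* and *Cbx7* the lowest levels, *Asxl1* libraries of *Tet2*-/- mice lie above all WT libraries in GMP and MEP, and the CLP libraries of most genes lie far apart.

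Levels differed among populations for 5 of the 10 genes in WT and for 3 in *Tet2*-/-, by an F test over the 6 populations with edgeR. The called genes were *Ezh2* (adjusted p 0.000663 in WT and 0.0169 in *Tet2*-/-), *Eed* (0.000523 and 0.0379) and *Rnf2* (2.92e-05 and 0.0288) in both genotypes, and *Bmi1* (0.0305) and *Cbx7* (0.00498) in WT. Of all genes tested, 44.6% were called in WT and 40.2% in *Tet2*-/-, so the members' counts are close to the background. On leaving out a replicate number the *Tet2*-/- count fell to 0 without replicate 2 and to 1 without replicate 3, 4 or 5. Without CLP, 7 were called in WT against 50.7% of genes, *Ezh1* and *Asxl1* being added, and 4 in *Tet2*-/- against 48% of genes, *Bmi1* being added.

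*Ezh2*, the PRC2 catalytic subunit of dividing cells, was highest in MEP. In WT the MEP libraries held 73.0, 73.9, 82.6 and 75.8 CPM and the CMP libraries 70.3, 61.9, 75.2 and 71.1, while LT-HSC held 45.0, 43.2 and 41.0 and ST-HSC 45.9, 49.6 and 46.9. No WT stem cell library reached the lowest MEP or CMP library. Against the mean of the other 5 populations, *Ezh2* was higher in MEP by 0.55 on the log2 scale (SE 0.12, adjusted p 0.00276) and in CMP by 0.45 (SE 0.13, adjusted p 0.0408), and lower in CLP (-0.52, SE 0.13, adjusted p 0.00503). In *Tet2*-/- cells the MEP libraries held 91.7, 81.5, 71.1 and 91.3 CPM and *Ezh2* was again higher in MEP (0.67, SE 0.18, adjusted p 0.0122) and lower in ST-HSC (-0.64, SE 0.20, adjusted p 0.0365), where libraries ran from 28.5 to 56.8 CPM. The order of the WT means was MEP, CMP, GMP, ST-HSC, LT-HSC and CLP, and of these neighbours only ST-HSC and LT-HSC did not overlap. Leaving out any 1 replicate number kept the WT MEP call, with adjusted p from 0.0101 to 0.0416, and ended the CMP call each time (0.09 to 0.257). The *Tet2*-/- MEP call was lost without replicate 2 (0.0574) or 3 (0.068), the ST-HSC call without replicate 2 (0.143), 3 (0.23) or 5 (0.0985), and the CLP call in WT without replicate 3 (0.132) or 5 (0.0739). Without CLP the MEP calls in WT (0.49, adjusted p 0.000307) and *Tet2*-/- (0.68, adjusted p 0.00165), the WT CMP call (0.36, adjusted p 0.0164) and the *Tet2*-/- ST-HSC call (-0.68, adjusted p 0.00526) remained, and WT LT-HSC was lower (-0.53, adjusted p 0.00141).

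*Ezh1*, the subunit of resting and differentiated cells, ran the other way. WT LT-HSC held 33.1, 32.6 and 24.3 CPM and WT ST-HSC 32.5, 20.6 and 28.8, above all 12 WT libraries of CMP, GMP and MEP, which ran from 7.74 to 17.6 CPM. WT CLP spread from 0.586 to 68.2 CPM, and the F test over 6 populations did not call *Ezh1* in WT (adjusted p 0.197) or in *Tet2*-/- (0.0521). Without CLP the WT test called it (adjusted p 0.000277), with higher levels in LT-HSC (0.94, adjusted p 0.00277) and ST-HSC (0.80, adjusted p 0.00808) and lower levels in CMP (-0.72, adjusted p 0.0394) and MEP (-0.84, adjusted p 0.00459). In *Tet2*-/- CLP *Ezh1* was called higher than in the other 5 (0.72, SE 0.26, adjusted p 0.0383), a call lost without replicate 2 (0.102), 3 (0.455) or 5 (0.0574).

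The ratio of *Ezh2* to *Ezh1* within a library, per kb, needs no scaling between libraries. In WT its geometric mean was 1.61 in LT-HSC and 1.97 in ST-HSC, 4.04 in GMP, 6.59 in CMP and 7.87 in MEP, and 3.19 in CLP, where single libraries ran from 0.572 to 103. The *Tet2*-/- values were 2.54, 1.93, 2.94, 6.11, 7.45 and 2.14 in LT-HSC, ST-HSC, GMP, CMP, MEP and CLP. Every MEP and CMP library of either genotype had a ratio of at least 4.53, and no LT-HSC or ST-HSC library had more than 3.98. Between genotypes the ratio did not pass an exact two-sided permutation test in any of the 6 populations, where the smallest p possible is 0.0286. The smallest p-values were in LT-HSC, where *Tet2*-/- libraries held 3.05, 2.88, 1.89 and 2.50 and WT libraries 1.51, 1.48 and 1.88 (difference 0.65 on the log2 scale, exact permutation p = 0.0571), and in GMP, with 2.65, 3.39, 2.79 and 2.97 against 4.30, 3.35, 5.73 and 3.24 (-0.46, exact p = 0.0857). In LT-HSC every *Tet2*-/- library lay above every WT library, and in GMP the groups overlapped. The other 4 differences were -0.03 (ST-HSC, exact p = 0.971), -0.11 (CMP, exact p = 0.771), -0.08 (MEP, exact p = 0.8) and -0.58 (CLP, exact p = 0.914), with no adjustment over the 6 tests. None of these 4 kept its sign under every alternative. In WT CLP replicate 2 was at 103 and the others at 0.881, 0.572 and 1.99.

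**Figure D2:**
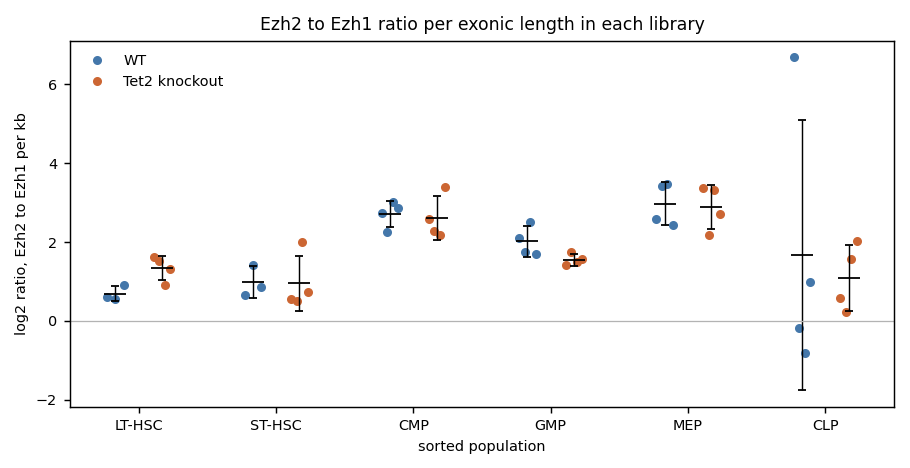
Log2 of the *Ezh2* to *Ezh1* ratio per kb of exon by population and genotype, with a point for each library and bars for the mean and SD. All LT-HSC and ST-HSC libraries lie below all CMP and MEP libraries, and 1 WT CLP library lies far above the rest at 6.69, a ratio of 103.

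*Eed*, which binds the methyl mark and stimulates PRC2, was highest in WT ST-HSC, with 93.2, 108.9 and 88.0 CPM, and lowest in WT CLP, with 39.2, 17.0, 9.5 and 27.3. Every WT CLP library lay below every other WT library. Against the other 5 populations it was higher in ST-HSC (0.89, SE 0.24, adjusted p 0.0141) and lower in CLP (-1.61, SE 0.26, adjusted p 6.13e-05). The CLP call remained without any 1 replicate number (0.000187 to 0.00577), while the ST-HSC call was lost without replicate 3 (0.224) or 5 (0.106). Without CLP, ST-HSC was higher (0.60, adjusted p 0.00396) and GMP lower (-0.67, adjusted p 0.000744) in WT. In *Tet2*-/- cells CLP was again lower (-0.90, SE 0.26, adjusted p 0.0129), a call lost without replicate 2 (0.0501), 3 (0.0805) or 4 (0.116), and the other 5 populations had means of 42.8 to 70.9 CPM. Without CLP, *Eed* in *Tet2*-/- was lower in LT-HSC (-0.50, adjusted p 0.0294) and higher in MEP (0.43, adjusted p 0.0391). *Suz12*, the scaffold of PRC2, was not called among populations in WT (adjusted p 0.198) or *Tet2*-/- (0.269). Its WT libraries fell far apart within groups. In MEP they held 85.3, 108.8, 18.9 and 21.4 CPM, in LT-HSC 89.3, 82.2 and 15.8, and in GMP 14.2, 43.7, 18.1 and 40.1, while WT ST-HSC held 96.5, 70.3 and 89.5 and *Tet2*-/- cells outside CLP ran from 30.9 to 131.2. Such spread within a group limits what the tests of *Suz12* could call.

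*Rnf2*, the main PRC1 ligase, was lowest in MEP. WT MEP libraries held 62.9, 68.6, 64.5 and 63.1 CPM, below all other WT libraries, and WT ST-HSC held 147, 197.3 and 190.6, above all others. It was lower in MEP by contrast with the other 5 populations (-0.95, SE 0.14, adjusted p 3.05e-05) and higher in ST-HSC (0.87, SE 0.13, adjusted p 0.000143), and both calls remained without any 1 replicate number (highest adjusted p 0.00298 and 0.0178). In *Tet2*-/- MEP the libraries held 69.3, 77.8, 59.9 and 55.8 CPM and *Rnf2* was again lower (-0.80, SE 0.21, adjusted p 0.00823), a call lost without replicate 2 (0.0534) or 5 (0.055). Without CLP the calls in WT ST-HSC (0.87), WT MEP (-1.0) and *Tet2*-/- MEP (-0.84, adjusted p 0.00493) remained. Its *Tet2*-/- LT-HSC libraries ran from 89.0 to 227.9 CPM. The other ligase, *Ring1*, was at 0 to 11.8 CPM in single libraries and was not called in WT (adjusted p 0.943) or *Tet2*-/- (0.913).

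*Bmi1*, a Pcgf subunit that sustains stem cell self-renewal, was highest in WT ST-HSC, with 67.9, 52.0 and 56.8 CPM, followed by LT-HSC with 44.9, 55.8 and 33.3. WT GMP held 10.9, 17.5, 21.1 and 10.3, below every LT-HSC and ST-HSC library. Higher levels in WT ST-HSC were called (1.33, SE 0.43, adjusted p 0.0407), though not without replicate 2 (0.197), 3 (0.107), 4 (0.0628) or 5 (0.0986). The *Tet2*-/- LT-HSC libraries held 73.1, 42.6, 29.8 and 57.6, and lower levels were called in GMP (-1.31, SE 0.41, adjusted p 0.0288), with 14.9, 15.1, 15.7 and 9.09 CPM, though not without replicate 2 (0.101), 4 (0.0932) or 5 (0.128). Without CLP, GMP was lower in WT (-1.35, adjusted p 5.85e-05) and in *Tet2*-/- (-1.39, adjusted p 0.00083), and LT-HSC was higher in WT (0.60, adjusted p 0.0373) and in *Tet2*-/- (0.89, adjusted p 0.0125). *Cbx7*, a reader that favours stem cell self-renewal, was at 24.2 CPM or below in every library. WT CLP held 8.82, 3.0, 3.27 and 24.2, and higher levels were called there (2.19, SE 0.46, adjusted p 0.000852), a call lost without replicate 5 (1.32, adjusted p 0.0738). WT ST-HSC held 6.02, 5.22 and 4.06, above all WT libraries of LT-HSC, CMP, GMP and MEP, and was called higher once CLP was left out (1.59, adjusted p 0.0108).

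*Asxl1* had its lowest WT mean in GMP, with 31.2, 31.7, 20.6 and 30.3 CPM, against 67.1, 79.0 and 52.7 in WT ST-HSC and 68.5, 55.6, 53.5 and 49.8 in WT CMP. GMP was called lower than the other 5 (-0.88, SE 0.25, adjusted p 0.0131), a call lost without replicate 3 (0.0592) or 4 (0.0869), and the WT F test gave an adjusted p of 0.0521. Without CLP the GMP value was -0.95 (adjusted p 0.00041) and the F test gave 0.00217. No population of *Tet2*-/- cells was called for *Asxl1*, and their F test gave 0.943. *Asxl2* ranged from 16.5 to 72.2 CPM in WT libraries with group means of 31.6 to 47.9, and was not called in WT (adjusted p 0.718) or *Tet2*-/- (0.395).

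Counted by population against the other 5, the WT calls were 0 of 10 in LT-HSC (17.4% of genes), 3 in ST-HSC (17.3%), 1 in CMP (5.45%), 1 in GMP (24.2%), 2 in MEP (22.9%) and 3 in CLP (36.1%). The *Tet2*-/- calls were 0 in LT-HSC (15.8%), 1 in ST-HSC (16%), 0 in CMP (2.12%), 1 in GMP (19.8%), 2 in MEP (20.1%) and 2 in CLP (30.5%). In WT CLP, 3 of 10 was below the background share, and in WT ST-HSC it was above. At an unadjusted p of at most 0.05 by edgeR there was 1 member in WT LT-HSC, *Ezh2* (29% of genes), 2 in *Tet2*-/- LT-HSC (29%) and 2 in *Tet2*-/- CMP (13%). DESeq2 called 1 (23.5% of genes), 2 (22.4%) and 0 (5.76%) in the same order. The pairs of gene and population called in the same direction in both genotypes were *Ezh2* and *Rnf2* in MEP and *Eed* in CLP. Without CLP, the WT counts were 3 in LT-HSC (24.2% of genes), 7 in ST-HSC (27.2%), 2 in CMP (8.31%), 3 in GMP (40.2%) and 3 in MEP (33%). The *Tet2*-/- counts without CLP were 3 in LT-HSC (24.2%), 1 in ST-HSC (25.2%), 0 in CMP (2.99%), 1 in GMP (35.3%) and 3 in MEP (28.1%), and 3 members in CMP had an unadjusted p of at most 0.05 by edgeR (14.2% of genes). In *Tet2*-/- LT-HSC, *Bmi1* (0.89) and *Cbx7* (1.40) were higher and *Eed* (-0.50) lower. The 7 in WT ST-HSC were *Ezh1*, *Eed* (0.60), *Bmi1* (1.13), *Rnf2* (0.87), *Cbx7* (1.59) and *Asxl1* (0.57), all higher, and *Ezh2* (-0.33), lower. Scaling by relative log expression in place of TMM moved the median of all genes for CLP against the others by 0.18 in WT and 0.14 in *Tet2*-/-, and the share of calls that were higher from 51.4% to 59.0% and from 58.5% to 64.8%. The other contrasts moved by less than 0.1.

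**Figure D3:**
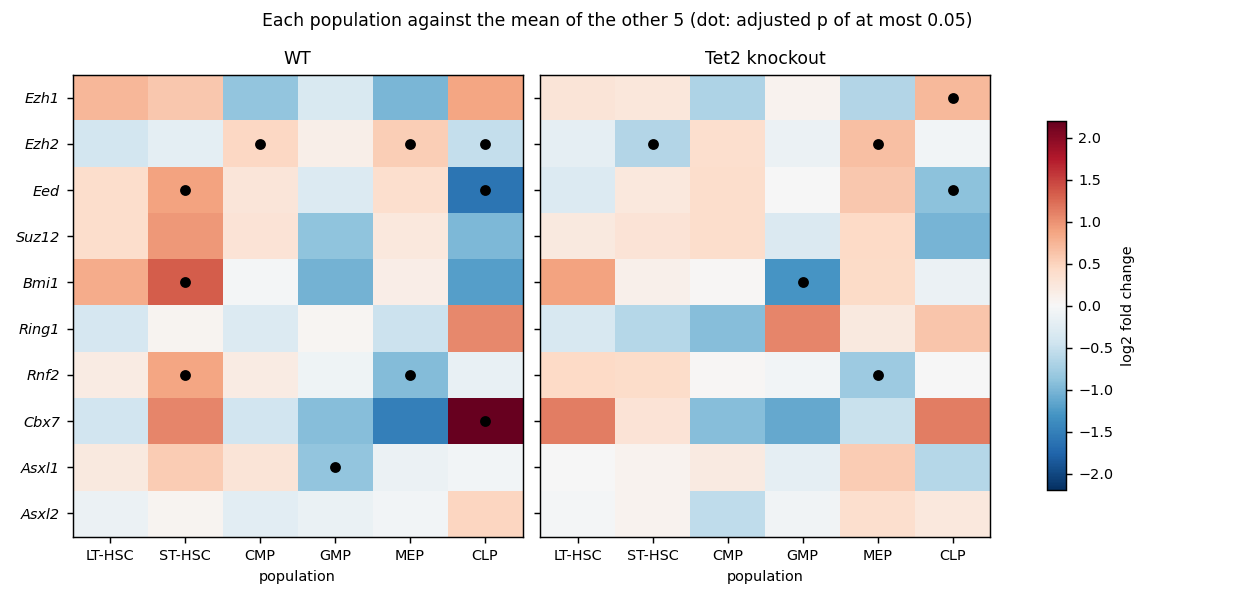
Log2 difference of each gene (rows) in a population (columns) from the mean of the other 5, as colour, in WT and in *Tet2*-/-, with a dot on called values. *Ezh2* is higher and *Rnf2* lower in MEP in both genotypes, and *Eed* is lower in CLP in both.

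Between *Tet2*-/- and WT cells of the same population, *Asxl1* was the only member called, and it was higher in *Tet2*-/- GMP and MEP. In MEP the *Tet2*-/- libraries held 65.8, 84.1, 69.3 and 81.8 CPM (75.3 ± 9.04, SD, n = 4) and the WT libraries 51.0, 40.5, 46.6 and 47.1 (46.3 ± 4.32, SD, n = 4). The difference was 0.69 on the log2 scale (SE 0.14, adjusted p 0.0153). In GMP the *Tet2*-/- libraries held 42.9, 50.6, 54.1 and 38.7 CPM (46.6 ± 7.02, SD, n = 4) and the WT libraries 31.2, 31.7, 20.6 and 30.3 (28.5 ± 5.26, SD, n = 4), a difference of 0.68 (SE 0.17, adjusted p 0.0393). In both populations every *Tet2*-/- library lay above every WT library. In CMP the means were 61.5 and 56.9 CPM (0.10, adjusted p 0.769), in LT-HSC 54.2 and 54.8 (0.01, adjusted p 0.998), in ST-HSC 56.4 and 66.3 (-0.20, adjusted p 0.999) and in CLP 38.1 and 46.8 (-0.29, adjusted p 1). In MEP 5.66% of genes were called and in GMP 6.56%, and 98 of the 846 called in MEP and 177 of the 1086 called in GMP were higher, so 1 of 10 members is near the background share, in its less common direction.

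These calls lay close to the threshold. In GMP the call remained only without *Tet2*-/- replicate 5 (adjusted p 0.0327) and was lost on leaving out any other library (up to 0.123), while the log2 difference stayed between 0.57 and 0.77. In MEP it was lost without *Tet2*-/- replicate 3 (0.0529) or WT replicate 4 (0.0524), and the difference stayed between 0.63 and 0.75. With all 46 libraries in 1 fit the adjusted p was 1 in both populations, and without CLP in that fit it was 0.114 in GMP and 0.0788 in MEP. With the replicate number as a block both calls were lost as well. DESeq2 called both (0.00414 and 9.66e-05). The term for a genotype effect that differs among populations gave *Asxl1* an adjusted p of 1, so its effect in GMP and MEP was not shown to differ from that in the other 4 populations. It called 0 of the 10 members and 2.65% of genes. None of the members had an unadjusted p of 0.05 or less (14% of genes), and none was called by DESeq2 (7.34%).

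The marker lists were summed beside these calls. In MEP the 12 cell cycle genes summed to 2786 to 3203 CPM in *Tet2*-/- and 2319 to 2790 in WT, the 6 MEP markers to 14360 to 19290 and 13340 to 14970, and the 5 erythroid markers, globins and *Alas2*, to 80.5 to 106.5 and 157 to 430.2. In GMP the cell cycle genes summed to 2855 to 3123 and 2482 to 3081, the 7 HSC markers to 16.3 to 24.2 and 12.3 to 16.0, the 6 GMP markers to 35610 to 44550 and 31480 to 42340, and the 5 neutrophil markers to 4.74 to 20.0 and 15.6 to 50.9. The MEP sum is mostly *Car1*, a carbonic anhydrase gene (means of 15630 and 12930 CPM), while *Klf1*, an erythroid transcription factor gene of the same list, was lower, at 25.3 to 48.3 CPM in *Tet2*-/- MEP and 238 to 399 in WT. The share of mitochondrial counts was 8.96% to 9.74% in *Tet2*-/- MEP and 6.85% to 9.18% in WT, and 4.74% to 5.09% and 3.64% to 4.6% in GMP. The HSC marker *Fgd5* had a median of 0 in MEP of both genotypes. The part of these values in the *Asxl1* difference was not tested.

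The PRC2 members did not pass the test between genotypes. *Eed* was lower in the stem cells of *Tet2*-/- mice by values that stand apart but were not called. In LT-HSC the *Tet2*-/- libraries held 33.6, 46.6, 55.4 and 35.5 CPM (42.8 ± 10.2, SD, n = 4) and the WT libraries 73.1, 64.0 and 83.3 (73.5 ± 9.69, SD, n = 3), a difference of -0.76 (SE 0.24, adjusted p 0.743). In ST-HSC they held 39.8, 55.1, 75.8 and 57.9 (57.2 ± 14.8, SD, n = 4) and 93.2, 108.9 and 88.0 (96.7 ± 10.9, SD, n = 3), a difference of -0.73 (SE 0.24, adjusted p 0.56). In both, every *Tet2*-/- library lay below every WT library. With all populations but CLP in 1 fit the adjusted p was 0.0664 and 0.0622, the lowest of 13 alternatives for each. None of the alternatives called *Eed* in LT-HSC or ST-HSC. On leaving out 1 library the adjusted p was at least 0.466 in LT-HSC and 0.387 to 0.908 in ST-HSC. In CMP, GMP and MEP the differences of *Eed* were -0.10, -0.04 and -0.07 with overlapping libraries, and the term for a difference among populations gave an adjusted p of 0.48. HSC markers summed to 495.7 to 712.7 CPM in *Tet2*-/- LT-HSC and 331 to 554.5 in WT, and to 211 to 462.6 and 375 to 391.7 in ST-HSC. Of the erythroid markers, the globins had lower means in *Tet2*-/- cells of both populations. *Hbb-bt* had means of 37.6 CPM in *Tet2*-/- LT-HSC and 75.4 in WT, and 85.7 and 120.8 in ST-HSC. *Alas2* was higher, at 0.974 and 0.468 in LT-HSC and 0.22 and 0.0671 in ST-HSC. Mitochondrial counts took 8.82% to 14.5% in *Tet2*-/- LT-HSC and 8.02% to 9.5% in WT, and 10.0% to 13.1% and 8.73% to 9.02% in ST-HSC. The part of these values was not tested.

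*Suz12* was at 61.8, 57.4, 60.8 and 46.7 CPM in *Tet2*-/- GMP, all above the WT values of 14.2, 43.7, 18.1 and 40.1 (0.94, SE 0.32, adjusted p 0.134), and at 85.4, 115.2, 69.7 and 86.5 in CMP against 75.4, 57.1, 52.6 and 51.2 in WT (0.58, SE 0.19, adjusted p 0.106). DESeq2 called both (0.0242 and 0.025). *Ezh2* lay higher in every *Tet2*-/- LT-HSC library (47.9, 54.0, 48.8 and 54.4 CPM) than in the WT libraries (45.0, 43.2 and 41.0), a difference of 0.27 (SE 0.21, adjusted p 0.998). *Ezh1* had differences from -0.38 in LT-HSC to 0.25 in GMP, none called (adjusted p 0.516 to 1).

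Among PRC1 genes, *Bmi1* in ST-HSC was at 48.7, 37.98, 28.1 and 14.1 CPM in *Tet2*-/- and 67.9, 52.0 and 56.8 in WT, which do not overlap, with a difference of -0.84 (SE 0.39, adjusted p 0.861). *Cbx7* in MEP was at 2.80, 3.94, 3.05 and 2.53 CPM in *Tet2*-/- and 1.04, 1.44, 0.341 and 1.95 in WT, without overlap (1.35, SE 0.54, adjusted p 0.249), and in LT-HSC at 11.2, 12.8, 4.09 and 3.16 against 3.25, 2.25 and 1.01 (1.87, SE 0.75, adjusted p 0.886). *Rnf2* differed by -0.42 in ST-HSC (adjusted p 0.888) and by -0.18 to 0.18 elsewhere. *Ring1* had differences of -1.19 to 0.12 at levels of a few CPM, and *Asxl2* 0.66 in MEP (SE 0.26, adjusted p 0.236), with 52.8, 68.0, 49.1 and 58.6 CPM against 33.0, 19.8, 49.4 and 41.8.

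No member was called in LT-HSC (0.0245% of genes), ST-HSC (0.0185%), CMP (6.89%) or CLP (0.00766%) by edgeR. At an unadjusted p of at most 0.05 there were 2 members in LT-HSC (5.16% of genes), 1 in ST-HSC (6.13%), 1 in CMP (19.1%) and 0 in CLP (3.65%). DESeq2 called 0 in LT-HSC (1% of genes), 0 in ST-HSC (1.47%), 1 in CMP (14.8%) and 0 in CLP (0.988%). Of the 60 pairs of member and population, 8 had groups that did not overlap. They were 2 in LT-HSC (7.08% of genes), 2 in ST-HSC (8.14%), 0 in CMP (15.8%), 2 in GMP (13.3%), 2 in MEP (13%) and 0 in CLP (3.87%). In GMP and MEP 2 of 10 is near the share of all genes, in LT-HSC and ST-HSC it is above, and in CMP 0 of 10 is below. With 10 members each of these differences rests on very few genes, so the counts are not a result about the members. The pairs were *Ezh2* and *Eed* in LT-HSC, *Eed* and *Bmi1* in ST-HSC, *Suz12* and *Asxl1* in GMP, and *Cbx7* and *Asxl1* in MEP. The median difference of the 10 members was 0.20 in LT-HSC, -0.26 in ST-HSC, 0.08 in CMP, 0.19 in GMP, 0.28 in MEP and 0.11 in CLP, against 0.06, 0.04, 0.03, 0.03, 0.05 and 0.07 over all genes tested.

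**Figure D4:**
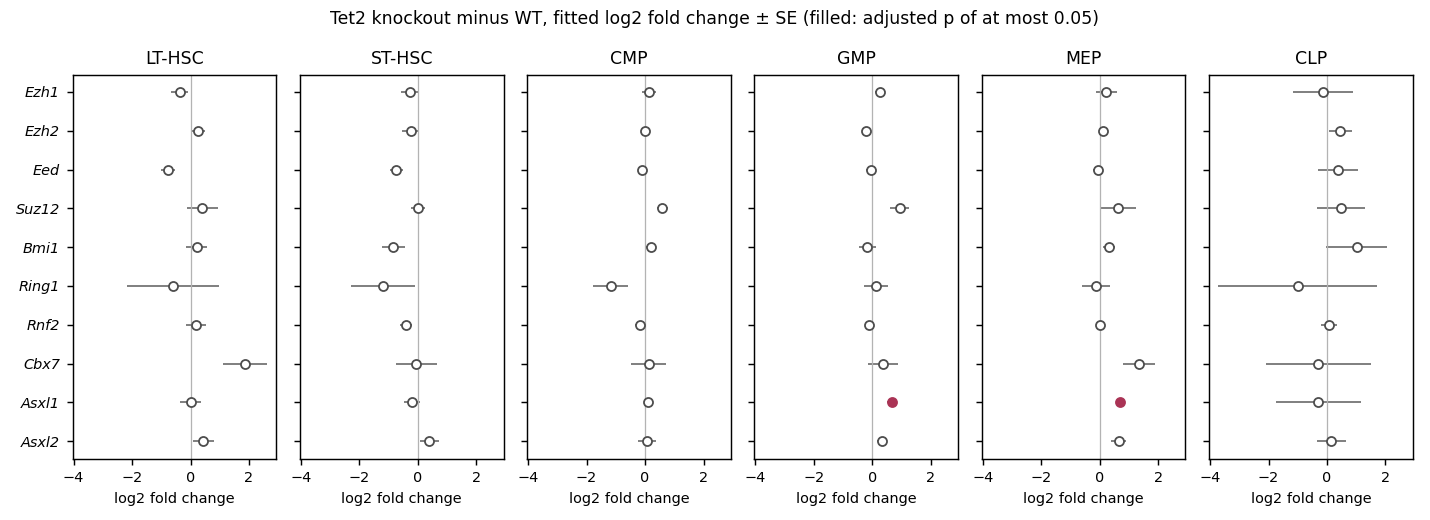
Log2 fold change of *Tet2*-/- over WT with its SE for each gene in the 6 populations, called values filled. The called values are *Asxl1* at 0.68 in GMP and 0.69 in MEP, *Eed* lies at -0.76 and -0.73 in LT-HSC and ST-HSC, and the widest error is that of *Ring1* in CLP.

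A list of 41 other Polycomb genes, the partners of PRC2, PRC1 and the Bap1 complex, was tested between genotypes. In CMP 0 of 39 tested were higher and 2 lower (6.89% of all genes were called), in GMP 2 of 39 higher and 2 lower (6.56%), and in MEP 1 of 38 tested was higher and 1 lower (5.66%). The share is below that of all genes in CMP and MEP and above it in GMP. In LT-HSC, ST-HSC and CLP none was called by edgeR, with 4, 1 and 1 at an unadjusted p of at most 0.05. *Pcgf6*, the Pcgf subunit of a variant PRC1, fell in CMP (-1.06, adjusted p 0.0214), GMP (-1.91, adjusted p 0.0228) and MEP (-1.50, adjusted p 0.0019), where it went from 50.8 ± 6.64 to 18.1 ± 4.07 CPM (SD, n = 4 and 4). *Pcgf5* fell in CMP (-0.67) and *Yaf2*, a Ring1 binding protein, in GMP (-0.76). *Jarid2*, which recruits PRC2, rose in GMP (1.0, adjusted p 0.0196), from 24.1 ± 8.51 to 49.1 ± 4.08 CPM (SD, n = 4 and 4), as did *Ogt*, a glycosyltransferase of the Bap1 complex (0.70), and *Rbbp7*, a histone binding subunit, rose in MEP (0.45). Among populations 12 of 39 were called in WT and 13 of 39 in *Tet2*-/-, below the 44.6% and 40.2% of all genes.

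The shares of all genes called, 6.89% in CMP, 6.56% in GMP and 5.66% in MEP, are also the background of the next 3 lists. The first was a mixed list of 16 known Polycomb targets and linked stem cell genes. Of these, 12 were tested in CMP and 2 fell, *Hoxa9* (-0.87, adjusted p 0.013) and *Hoxa10* (-1.42, adjusted p 0.0375), which are homeobox genes of early progenitors. In GMP 10 were tested, *Hoxa9* fell (-0.71, adjusted p 0.0222) and *Hmga2*, a chromatin protein of fetal stem cells, rose (2.06, adjusted p 0.0394) from 1.40 ± 0.235 to 5.97 ± 4.75 CPM (SD, n = 4 and 4). In MEP 10 were tested and 0 called, with a median difference of -0.84. Some of the 10 were near the floor in MEP, with group means down to 0.196 CPM in *Tet2*-/- and 0.091 in WT, which limits what this median shows. There 1 was higher and 2 were lower at an unadjusted p of at most 0.05 by edgeR. Of 8 genes that oppose Polycomb, *Kdm6b*, an H3 lysine 27 demethylase, fell in CMP (-1.39, adjusted p 0.0295) and GMP (-0.85, adjusted p 0.0365). Its values in the other populations, not called by edgeR, were -1.85 in LT-HSC (adjusted p 0.445), -1.71 in ST-HSC (0.314), -1.24 in MEP (0.0905) and -1.39 in CLP (1), and in each of the 6 populations all *Tet2*-/- libraries lay below all WT libraries. Of 12 cell cycle genes, *Mki67*, *Top2a*, *Cdk1* and *Birc5* rose in CMP (0.77, 0.80, 0.64 and 0.69), *Mki67* and *Top2a* in GMP (0.72 and 0.46), and *Ccna2*, which encodes cyclin A2, fell in GMP (-1.93) and MEP (-1.23). In CMP the 6 MEP markers also summed to 2822 to 5675 CPM in *Tet2*-/- and 575.7 to 1590 in WT, mostly as *Car1* (means of 3584 and 871), while *Klf1* was lower, at 13.7 to 19.2 against 26.0 to 70.9. Mitochondrial counts took 7.85% to 8.37% in *Tet2*-/- CMP and 5.94% to 6.57% in WT. The part of these values in the CMP results was not tested. None of these 3 lists had a call in LT-HSC, ST-HSC or CLP by edgeR, where 1, 3 and 1 of the targets and linked stem cell genes, *Kdm6b* alone of the opposing genes and 0 cell cycle genes had an unadjusted p of at most 0.05.

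The likeness of the members to other genes and to the cell cycle is given as a description, over libraries that share population and genotype, with the value over the 38 libraries without CLP in second place. With the mean log2 CPM of the 12 cell cycle genes, *Ezh2* had a Pearson r of 0.66 over 46 libraries and 0.74 without CLP, *Rnf2* -0.43 and -0.62, *Ezh1* -0.43 and -0.59, *Bmi1* -0.26 and -0.59, and *Cbx7* -0.22 and -0.59. *Eed* (0.57 and 0.06) and *Asxl1* (0.60 and -0.25) did not keep their value without CLP. *Suz12* had 0.12 and -0.29, *Ring1* -0.019 and 0.29, and *Asxl2* -0.30 and -0.17. Among 22360 genes the nearest to *Ezh2* were *Pmf1* (0.81 and 0.82), *Smc2* (0.80 and 0.79) and *Cks2* (0.80 and 0.82), genes of chromosome segregation and the cell cycle, and the nearest to *Rnf2* were *Rgs2* (0.82 and 0.87), *Gpr171* (0.80 and 0.85) and *Fxyd5* (0.79 and 0.82). *Bmi1* was nearest to *Pkn2* (0.83 and 0.73), *Grsf1* (0.81 and 0.78) and *Rbmx2* (0.79 and 0.55), *Eed* to *Apex1* (0.89 and 0.71), *Bcap29* (0.89 and 0.62) and *Ppp2r3c* (0.87 and 0.65), and *Ezh1* to *Msantd4* (0.80 and 0.64), *Tmem35b* (0.79 and 0.61) and *Slc25a24* (0.78 and 0.48). *Asxl1* was nearest to *Cwc27* (0.95 and 0.19), *Mrpl39* (0.94 and 0.32) and *Rmnd5a* (0.94 and 0.47), so its likeness rested on the CLP libraries, in 1 of which it had no count. The other 4 members had no gene above 0.70. *Suz12* was nearest to *Rad21* (0.70 and 0.50), *Gm4879* (0.69 and 0.56) and *Ankrd13a* (0.67 and 0.58), *Ring1* to *Mmab* (0.70 and 0.57), *Zfp709* (0.70 and 0.19) and *Npepps* (0.69 and 0.56), *Cbx7* to *Parp14* (0.68 and 0.53), *Lgals8* (0.66 and 0.46) and *Tnfsf10* (0.65 and 0.43), and *Asxl2* to *Retreg2* (0.62 and 0.53), *Prrc2c* (0.54 and 0.55) and *Dusp11* (0.53 and 0.42).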

How the data were processed

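The authors sorted each population by FACS, amplified full-length cDNA, sequenced paired ends, trimmed with Trim Galore, mapped to mm10 with HISAT2 and tested with DESeq2, and they deposited raw counts of reads per gene with Ensembl IDs and symbols. Their notes list both mm10 and mm9, and the counting program, annotation and strand setting are not given in the sources used here. A separate table of LT-HSC libraries, 3 of them WT and none labelled Tet2-KO, was not used. Symbols, coordinates and exonic lengths on mm10 come from GENCODE vM21, matched by Ensembl ID.

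The count test was the quasi-likelihood F test of edgeR 4.0.16 (R 4.3.3), after a low count filter (filterByExpr) and TMM scaling. A gene was called at a Benjamini-Hochberg adjusted p of 0.05 over all genes tested. *Tet2*-/- was compared with WT in a fit of the 2 groups of each population. Populations were compared in 1 fit of the WT libraries and 1 of the *Tet2*-/- libraries, as an F test and as each population against the mean of the other 5. The interaction was tested in all 46 libraries. SE is the log2 fold change over the root of F. CPM were scaled with TMM over all libraries. The ratio of *Ezh2* to *Ezh1* had 0.5 added to each count. The full pipeline was tested on simulated counts. DESeq2 1.42.0, relative log expression scaling, no low count filter, a 2-fold limit, all libraries in 1 fit, the replicate number as a block and leaving out each replicate were the alternatives, and fits without CLP were added after the data were seen.

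Named genes were all 10 members, *Tet2*, up to 8 called genes of each other list and the 3 genes most like each member. The members, lists and tests were chosen with earlier results of these data known. *Slamf1*, *Il7r*, *Rag1*, *Dntt*, *Flt3*, *Rag2*, *Ebf1*, *Mpo*, *Klf1*, *Car1*, *Fgd5*, *Hbb-bt* and *Alas2*, markers of the lists, were named after their values were seen. Counting error is small for most members at this depth, but not at low counts, such as *Ring1* at 13 and *Cbx7* at 26 in single libraries. Amplification from few cells adds error that counts do not show. PCR reads carry no molecular identifiers, so counts are not independent molecules.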

Additional observations from a re-analysis of the deposited data

Results flagged for a closer look

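Of 100 groups of 4 libraries, each a member in a population and genotype, 6 had a library set apart from the other 3 by more of the group's range than Dixon's 95% limit allows. Chance gives about 1 in 20. *Asxl1* in WT GMP replicate 4 was low at 20.6 CPM against 30.3 to 31.7 in the others. Without this library the difference of *Asxl1* between genotypes in GMP was 0.57 on the log2 scale with an adjusted p of 0.0743. *Ezh1* in *Tet2*-/- CMP replicate 5 was low at 8.15 CPM against 14.1 to 15.2. *Bmi1* was high in *Tet2*-/- CMP replicate 2, at 35.2 CPM against 29.4 to 29.8, and low in *Tet2*-/- GMP replicate 5, at 9.09 CPM against 14.9 to 15.7. *Ring1* in *Tet2*-/- ST-HSC replicate 5 was high at 2.64 CPM against 0.206 to 0.514, and *Cbx7* in *Tet2*-/- ST-HSC replicate 2 was high at 11.1 CPM against 2.15 to 3.11. None of the last 5 lies in a comparison between genotypes that passed the test.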

How the results depend on the processing

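The called difference of *Asxl1* between genotypes remained called in 3 of 14 alternatives in GMP and 9 of 14 in MEP, and lost the call in 11 and 5. The other 9 fold changes between genotypes followed here were not called, and DESeq2 called 2 of them, both *Suz12*. All 11 kept their direction over 149 alternatives, and all 16 fold changes between populations kept theirs over 139, of which 38 lost the call. Counts of members called between genotypes changed as follows. In GMP, with 1 in the fit reported, it was 0 with the 2-fold limit, 0 with no filter, 2 with DESeq2, 0 with all 46 libraries in 1 fit, 0 without CLP and 0 to 1 on leaving out a replicate. In MEP, with 1, it was 0 with the 2-fold limit, 0 with all 46 libraries, 0 without CLP and 0 to 1 on leaving out a replicate. In CMP DESeq2 called 1 (14.8% of genes). Between populations in WT, LT-HSC had 1 with DESeq2 and 3 without CLP, ST-HSC 1 with the 2-fold limit, 7 without CLP and 1 to 2 on leaving out a replicate, CMP 0 with the 2-fold limit, 0 with relative log expression scaling, 0 with no filter, 2 without CLP and 0 on leaving out any replicate, GMP 0 with the 2-fold limit, 2 with DESeq2, 3 without CLP and 0 to 1 on leaving out a replicate, and MEP 0 with the 2-fold limit. In *Tet2*-/-, the F test had 5 with DESeq2 and 0 to 1 on leaving out a replicate, LT-HSC 2 with DESeq2 and 3 without CLP, ST-HSC 0 with the 2-fold limit, 0 with no filter and 0 to 1 on leaving out a replicate, GMP 0 to 1, MEP 0 with the 2-fold limit and 1 to 2 on leaving out a replicate, and CLP 0 with the 2-fold limit, 1 with no filter and 0 to 2 on leaving out a replicate. The share of all genes called also moved with the setting, as with DESeq2, and is not given here for each count. These counts therefore compare settings, and a higher one is not a result about the members. The cause of these shifts was not tested.

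With the replicate number as a block, the count of members fell to 0 in GMP and 0 in MEP between genotypes, to 0 in WT CMP and to 1 in *Tet2*-/- CLP, and it changed no other count by more than 1.5 times. The deviations of same-numbered WT and *Tet2*-/- libraries had r of -0.022 to 0.035 over 22 pairs, with a median of 0.01. These values cannot tell whether the numbers pair libraries across genotypes, since r was small within a genotype as well. Within a genotype, same-numbered libraries of different populations had a median r of 0.026 (up to 0.106, 111 pairs). Pairs with other numbers had a median of -0.009 (up to 0.049, 330 pairs). Apart from the block, the population fits treat these libraries as independent. Under the block *Asxl1* had an adjusted p of 0.105 in GMP and 0.0804 in MEP.

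The ratio of *Ezh2* to *Ezh1* changed sign in ST-HSC, to 0.024 as the difference of the fitted fold changes and between -0.38 and 0.19 on leaving out a replicate, and in CLP, to 0.60 and between -1.40 and 1.09. On leaving out a replicate it ran from -0.37 to 0.036 in CMP and from -0.26 to 0.16 in MEP, and it kept its sign in LT-HSC (0.57 to 0.80) and GMP (-0.57 to -0.29).

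Counts over all genes moved by more than 1.5 times between genotypes with DESeq2, to 161 from 4 in LT-HSC, 230 from 3 in ST-HSC, 1906 from 1105 in CMP, 1704 from 1086 in GMP, 1368 from 846 in MEP and 126 from 1 in CLP, and with all 46 libraries in 1 fit, to 27, 25, 300, 226, 440 and 1651 in the same order. Without CLP in that fit they were 126 in LT-HSC, 170 in ST-HSC, 613 in CMP and 504 in GMP, and under the block 2 in LT-HSC, 654 in CMP and 0 in CLP. In CMP 734 passed the 2-fold limit and 722 were called without WT replicate 4. Between populations DESeq2 called 1657 against 1091 in WT CMP and 1100 against 412 in *Tet2*-/- CMP, and 1341 against 592 for the interaction, and the fit without CLP 5321 against 3460 in WT ST-HSC, 7843 against 4849 in WT GMP, 4769 against 3101 in *Tet2*-/- ST-HSC and 6684 against 3838 in *Tet2*-/- GMP. Depth limits the higher members least, while *Ring1* and *Cbx7* were at a few CPM in most libraries.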
